A study of Mus musculus with 16 samples.

Results

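Interferon-responding fibroblasts of the mouse thoracic aorta were taken as the fibroblasts that carried RNA of at least 3 of 5 interferon-induced genes, Ifit1, Ifit3, Ifit3b, Isg15 and Usp18. The cells were therefore chosen on measured values. A fibroblast was a cell with at least 5 unique molecular identifiers (UMIs, tags that count captured RNA molecules) of the matrix gene Dcn and more of Dcn than of the smooth muscle gene Myh11. Of 66349 deposited cells, 50858 passed the limits on genes, UMIs and mitochondrial RNA, 36066 of those were fibroblasts, and 2649 of the fibroblasts, 7.34%, passed the interferon gate. The remaining 33417 fibroblasts served as the comparison.

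Single-cell RNA sequencing was done on 16 thoracic aortas, root to arch, 1 mouse and 1 library each, to ask how loss of Smad3 from vascular smooth muscle cells (VSMCs) changes the aorta over time. Smad3 encodes a transcription factor of the TGF-β pathway. All mice were of the 129S6/SvEv strain, carried Myh11-CreER (a tamoxifen-dependent Cre driven by a smooth muscle promoter on the Y chromosome, so that carriers are male) and received tamoxifen for 5 days from 6 weeks of age. Controls were Smad3+/+, and Smad3SmKO mice were Smad3lox/lox. Collection 10 weeks post-deletion gave 2 libraries of each genotype label, and collection after 18 weeks gave 5 of Smad3+/+ and 7 labelled Smad3SmKO. The labels gave a Myh11-GFP tracer for 7 mice, namely both Smad3+/+ mice of 10 weeks, Smad3+/+ replicates 4 and 5, and Smad3SmKO replicates 5, 6 and 7 of 18 weeks. Cells were sorted on a DNA stain and exclusion of propidium iodide, so no cell type was selected. The Cre acts in smooth muscle, so fibroblasts were not the cells in which Smad3 was to be deleted, and Smad3 RNA in them is no check of the genotype labels.

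Interferons are secreted proteins that alert cells to viruses and to misplaced nucleic acid. Type I interferons bind the receptor IFNAR, whose kinases JAK1 and TYK2 activate STAT2 among other factors. STAT2 joins IRF9 and binds a DNA element called the interferon-stimulated response element (ISRE), while type II interferon acts through gamma-activated sites (GAS). Fibroblasts are the main cells of the outer aortic wall and answer both kinds of interferon with antiviral proteins, guanylate-binding GTPases, peptide presentation on MHC class I and chemokines.

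Of the 5 genes that defined the cells, 4 had a promoter entry in the RefSeq set used here (build GRCm38.p6), and they are shown because each carried the letters of an ISRE in the 250 bases before its start. The letters searched were GAAANNGAAA on either strand, which reads TTTCNNTTTC on the other, and they are given in capitals. Each stretch is written 5′ to 3′ on the strand of the gene.
Ifit1, chr19:34640760-34640838, plus strand: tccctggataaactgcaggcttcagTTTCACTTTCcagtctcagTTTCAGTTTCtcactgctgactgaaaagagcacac
Ifit3, chr19:34583348-34583441, plus strand: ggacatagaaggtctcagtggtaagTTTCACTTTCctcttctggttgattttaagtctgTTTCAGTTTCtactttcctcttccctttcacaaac
Ifit3b, chr19:34607744-34607837, plus strand: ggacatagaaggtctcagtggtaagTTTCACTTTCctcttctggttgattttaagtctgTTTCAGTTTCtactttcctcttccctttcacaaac
Isg15, chr4:156200850-156200921, minus strand: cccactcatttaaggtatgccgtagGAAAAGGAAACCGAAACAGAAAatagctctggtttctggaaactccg
Ifit1, Ifit3 and Ifit3b held 2 such elements each, and Isg15 held 3 that overlapped. The stretches of Ifit3 and Ifit3b were identical over all 94 bases. The same letters occurred before 936 of 27025 genes with a promoter entry, which is 3.46%.

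Some genes that the gate did not read, and that are described below as higher in these cells, were searched for the same letters. Oasl2, Irf7, Ifi47, Cmpk2, Tap1, Psmb9, Psmb8, Irf9 and Rnf213 did not carry them. The 4 that did are shown for comparison: Igtp and Apol9a, which were among the largest differences, the transcription factor gene Stat2 and the chemokine gene Cxcl10.
Igtp, chr11:58199497-58199555, plus strand: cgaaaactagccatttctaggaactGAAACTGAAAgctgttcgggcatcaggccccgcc
Apol9a, chr15:77411099-77411164, minus strand: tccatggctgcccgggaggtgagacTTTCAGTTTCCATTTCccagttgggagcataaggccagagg
Stat2, chr10:128270251-128270310, plus strand: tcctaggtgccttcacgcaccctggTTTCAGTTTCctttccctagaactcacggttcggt
Cxcl10, chr5:92349068-92349127, minus strand: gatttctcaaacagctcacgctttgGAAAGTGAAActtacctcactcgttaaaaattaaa
Among genes measured well enough to be tested, 272 of 8854 with a promoter entry (3.07%) had the letters. The share was 42 of 212 (19.8%) for genes higher in the interferon-responding fibroblasts and 3 of 122 (2.46%) for genes lower in them. It was 7 of 8 (87.5%) for the higher genes among the guanylate-binding and immunity-related GTPases, 10 of 30 (33.3%) for those among the antiviral and other interferon-stimulated genes, and 3 of 14 (21.4%) for those of class I presentation. The letters of a GAS, TTCNNNGAA, occurred before 8.13% of all genes and 7.07% of the tested genes. They occurred before 10.4% of the higher genes and 5.74% of the lower ones. In the same lists, 4 of 8 higher GTPase genes (50%) had GAS letters. So did 4 of 30 higher interferon-stimulated genes (13.3%) and 1 of 14 of class I presentation (7.14%). An ISRE and a GAS overlapped in 18 of 32851 promoter windows. A match of letters is a description and not a bound site.

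The 5 defining genes have different roles. Isg15 encodes a ubiquitin-like protein that is attached to other proteins, Usp18 the protease that removes it and that also restrains the type I receptor, and Ifit1, Ifit3 and Ifit3b encode proteins that bind foreign RNA or act beside those that do. Since these genes chose the cells, their levels are given as a description, as counts per 1000000 UMIs (CPM) of the summed cells of each of the 16 libraries. Isg15 was the most abundant, at 195 CPM in the lowest library, 477 in the median and 1178 in the highest, against a median of 46.6 in the other fibroblasts. Ifit3 was at 108, 246 and 889 CPM, against 14.2. Ifit1 was at 106, 222 and 442 CPM, against 9.04. Ifit3b and Usp18 were the lowest of the 5. Ifit3b was at 44.0, 79.2 and 423 CPM against 4.57, and Usp18 at 26.8, 54.9 and 116 CPM against 3.14. No library of the interferon-responding cells overlapped a library of the other fibroblasts for any of the 5 genes, which the gate brings about by construction. Ifit3 and Ifit3b are near copies, and 24.04% of the 31-base words in the last 500 bases of Ifit3 transcripts also occur in Ifit3b, so part of their reads could be assigned to either gene or dropped.

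**Figure D1:**
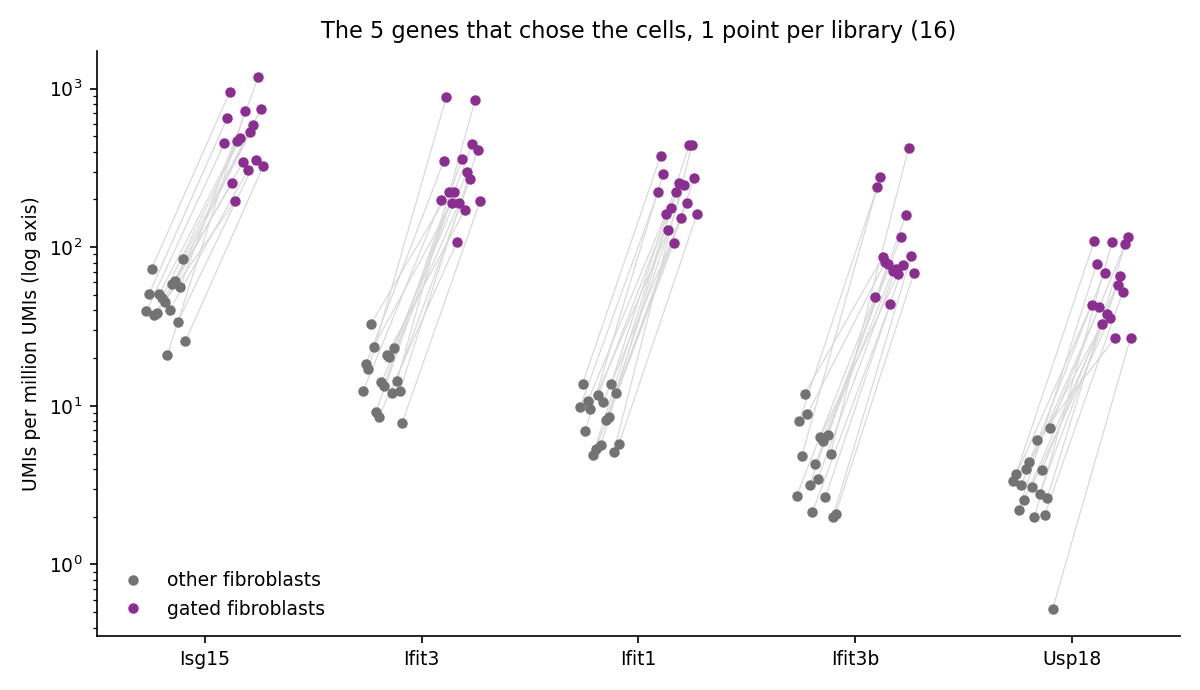
Level of the 5 defining genes (CPM, log axis) in the summed interferon-responding fibroblasts (purple) and the summed other fibroblasts (grey) of each of the 16 libraries, with lines joining the pair of sums of a library. Each purple point lies above every grey point of the same gene, since the genes chose the cells.

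Of the interferon-responding fibroblasts, 90.6% held a UMI of Isg15, 86.5% of Ifit3, 79.0% of Ifit1, 59.0% of Ifit3b and 48.7% of Usp18. The commonest combination was Ifit1, Ifit3 and Isg15 alone, in 474 cells or 17.9%. All 5 genes together came next, in 462 cells or 17.4%. The number of defining genes per fibroblast fell from step to step, with 20144 fibroblasts at 0 genes, 9818 at 1, 3455 at 2, 1420 at 3, 767 at 4 and 462 at 5. The cells just inside the threshold were thus the 1420 with exactly 3 genes, and those just outside it the 3455 with exactly 2. The summed level of the other interferon-stimulated genes, which the gate did not read, had a median over libraries of 2791 CPM at 0 genes, 3369 at 1, 4235 at 2, 4798 at 3, 6360 at 4 and 7934 at 5. It was higher at 1 gene than at 0 in 16 of 16 libraries, at 2 than at 1 in 16 of 16, at 3 than at 2 in 13 of 16, at 4 than at 3 in 12 of 16 and at 5 than at 4 in 14 of 15. Median depth also rose from 0 genes to 2 in every library, and whether the cells form a separate type was not tested.

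The label of the cells was checked against fibroblast markers that the rule did not use. Lum, Col1a1, Col1a2, Col3a1, Dpt, Serpinf1 and Pdgfra were present in the interferon-responding cells of all 16 libraries. The median library had a Lum UMI in 99.8% of the cells and a Pdgfra UMI in 77.3%. Smad3SmKO replicate 7 of 18 weeks differed for some genes. Serpinf1 was in 32.4% and Dpt in 38.2% of its interferon-responding cells, against 96.3% and 93.8% in the median library. The smooth muscle gene Myh11 was in 47.1%, against 4.94%. Its other fibroblasts held these genes in 44.4%, 30.9% and 51.2%. Lum (97.1%), Pdgfra (76.5%) and the collagen genes (100% each) stayed high in its interferon-responding cells. Of 12 marker genes of other cells, the T cell gene Cd3e was at 0 in 15 of 16 libraries, the B cell gene Cd79a in 12, the endothelial gene Cdh5 in 9 and the leukocyte gene Ptprc in 6. The endothelial gene Pecam1 and the pericyte gene Rgs5 were at 0 in none. The median library had a Pecam1 UMI in 15.6% of the interferon-responding cells and 13.1% of the others, and an Rgs5 UMI in 10.5% (up to 26.3%) and 6.58%. Rgs5 stood at a median of 52.8 CPM against 32.3. The immunoglobulin gene Igkc was at 0 in 9 libraries, but in Smad3+/+ replicate 5 of 18 weeks 57.3% of the interferon-responding cells and 49.9% of the others held it. Cells with a UMI of Ptprc, Tyrobp, Pecam1 or Cdh5 or with at least 2 of Myh11, called mixed below, made up a median of 22.4% of the interferon-responding fibroblasts and 19.3% of the others. The share was higher in the interferon-responding cells in 12 of 16 libraries, and its part in the results was not tested beyond the values given without those cells.

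Depth moved with the gate. The deposited libraries held 12539539 to 52843031 UMIs, and the median kept cell 4528 to 21884. Interferon-responding fibroblasts were deeper than the others in 14 of 16 libraries, by a ratio of medians between 0.947 and 1.32, and their mitochondrial share was lower in 16 of 16. When the UMIs of each fibroblast were split at random into 2 equal parts, 1446 cells passed on one of them, and a median of 60.0% of those passed again on the other, against 1.94% of the remaining fibroblasts. Of the kept cells, 632 shared a barcode with a cell of another library, among them 42 interferon-responding fibroblasts, and 3 barcodes were interferon-responding fibroblasts in 2 libraries.

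At 18 weeks the interferon-responding share of fibroblasts differed more between mice than between genotypes. It was 11.4%, 13.3%, 10.9%, 8.95% and 3.27% in Smad3+/+ replicates 1 to 5, with exact 95% binomial intervals of 10.4 to 12.4%, 12.02 to 14.6%, 9.20 to 12.8%, 7.79 to 10.2% and 2.66 to 3.98%. In the libraries labelled Smad3SmKO the lowest was 5.26%, the median 9.91% and the highest 20.0%. The groups overlapped between 5.26% and 13.3%, with 2 libraries labelled Smad3SmKO above every Smad3+/+ library and 1 Smad3+/+ library below every one labelled Smad3SmKO. Smad3+/+ mice averaged 9.55% ± 3.83 (SD, n = 5) and mice labelled Smad3SmKO 11.5% ± 5.30 (SD, n = 7), which is 1.94 percentage points more (exact two-sided permutation test, p = 0.505, smallest possible 0.00126). The intervals cover counting error only, and mice of one group differed by more than they span.

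Within batches the direction was not the same. The labels give the batches, of which 1 to 3 had 30 min of digestion and 4 to 6 had 60 min. The share in the libraries labelled Smad3SmKO minus that in Smad3+/+ was -0.810 points in batch 1, -5.64 in batch 2, 6.76 in batch 3 and 1.88 in batch 6, with 1 or 2 libraries of a genotype in each. Batch 5 held no Smad3+/+ library. Permuting the labels within batches gave a difference of 0.550 points (exact permutation p = 0.861), and the 7 libraries digested for 30 min gave -0.242 points (exact permutation p = 0.943). The 5 libraries digested for 60 min gave 5.23 points (exact permutation p = 0.6, smallest possible 0.1). Across digestion times at 18 weeks, the share was 9.25% ± 5.08 (SD, n = 5) at 60 min and 11.7% ± 4.43 (SD, n = 7) at 30 min, a difference of -2.46 points (exact permutation p = 0.399). At 18 weeks every library digested for 60 min carried the Myh11-GFP tracer and none digested for 30 min did. Digestion time, batch and tracer therefore cannot be told apart.

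At 10 weeks interferon-responding fibroblasts were few. The share was 1.41% and 1.81% in the Smad3+/+ libraries and 1.54% and 0.298% in those labelled Smad3SmKO, the last resting on 6 of 2013 fibroblasts. The difference of -0.688 points had an exact permutation p of 0.667, and 2 libraries against 2 cannot give less than 0.333. Both Smad3+/+ mice of 10 weeks carried the Myh11-GFP tracer and neither mouse labelled Smad3SmKO did, so genotype and tracer cannot be told apart at 10 weeks. The 4 libraries of 10 weeks lay below all 12 of 18 weeks. They were also the shallowest fibroblasts, with medians of 4303 to 5503 UMIs in the cells outside the gate, and all were in batch 4, which held no library of 18 weeks, so time, batch and depth cannot be told apart.

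Depth was then made equal by thinning each fibroblast to 2000 UMIs before the gate. The share became 4.56%, 1.64%, 0.901%, 1.13% and 0.102% in the Smad3+/+ libraries of 18 weeks, replicates 1 to 5. It had a lowest value of 0.657%, a median of 2.55% and a highest of 4.35% in those labelled Smad3SmKO. At 10 weeks it was 0.209% and 0.466% in Smad3+/+ and 0.0906% and 0.0994% in the libraries labelled Smad3SmKO, from 2 to 16 cells a library. A second random thinning gave 0.313% and 0.554% against 0.362% and 0.149% at 10 weeks, where the genotypes overlapped, and 0.307% in Smad3+/+ replicate 5 of 18 weeks. In both draws Smad3+/+ replicate 5 of 18 weeks lay within the range of the libraries of 10 weeks. Thinning to 5000 UMIs, for fibroblasts with at least that many, put Smad3+/+ replicate 2 of 10 weeks at 2.48%. That was above Smad3SmKO replicate 1 (1.80%) and Smad3+/+ replicate 5 (1.30%) of 18 weeks and below the other libraries of 18 weeks. The genotype difference at 18 weeks was 0.814 points after thinning to 2000 UMIs (exact permutation p = 0.337).

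**Figure D2:**
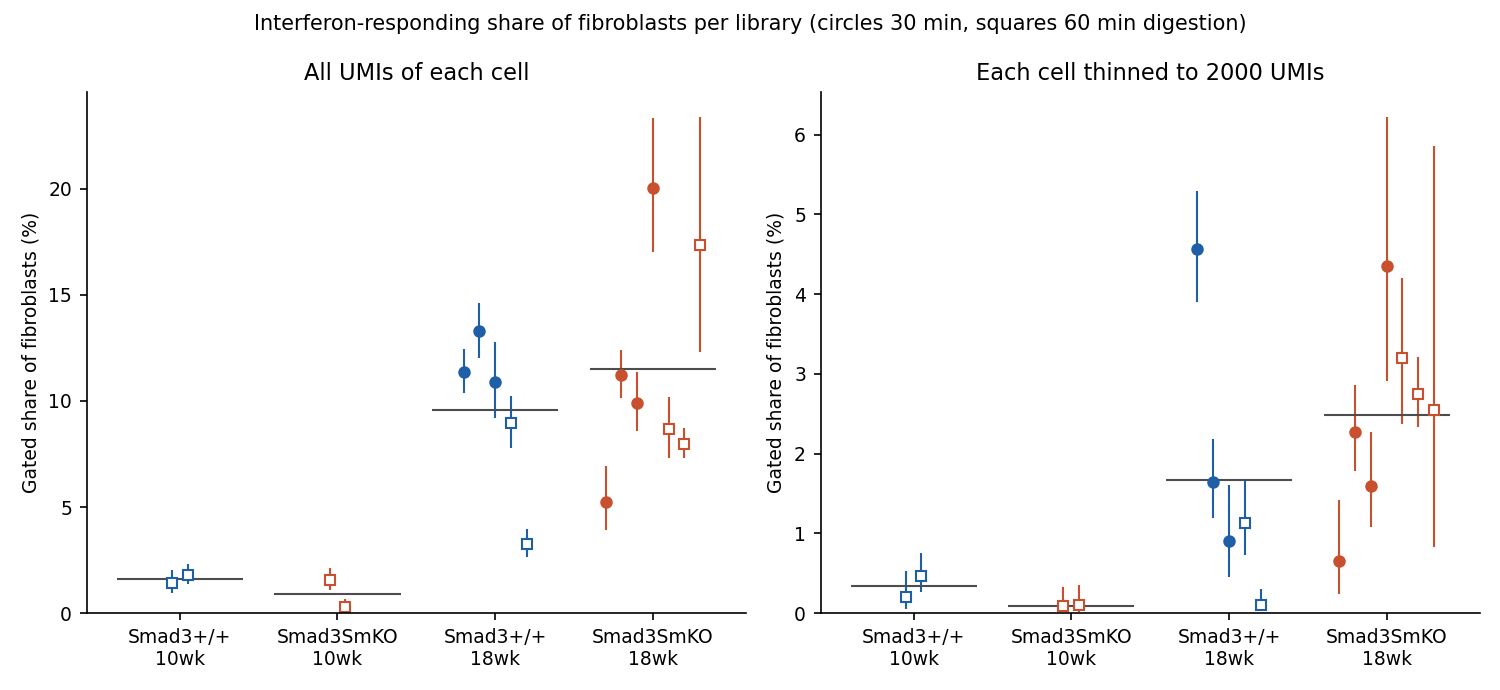
Interferon-responding share of fibroblasts (percent) in each of the 16 libraries by genotype and weeks post-deletion, with all UMIs (left) and with each cell thinned to 2000 UMIs (right); bars through points are exact 95% binomial intervals, horizontal lines group means, circles 30 min and squares 60 min of digestion. The 4 libraries of 10 weeks sit at 1.81% or lower on the left, and Smad3+/+ and Smad3SmKO libraries of 18 weeks overlap in both panels.

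The same gate applied to other cells gave the highest contrast against VSMCs, defined by at least 5 UMIs of Myh11 and more of Myh11 than of Dcn. Of 8950 VSMCs, 114 passed, and in 15 of 16 libraries the share was 0 to 2.30%, with fibroblasts above VSMCs in the same library. The exception was Smad3SmKO replicate 7 of 18 weeks, where 81 of 394 VSMCs (20.6%) and 17.3% of fibroblasts passed. After thinning, 3.55% of its VSMCs passed, against at most 1.03% in any other library. Its VSMCs held 1959 CPM of other interferon-stimulated genes, against 385 to 671 CPM elsewhere. This library also had the deepest cells, with a median of 21902 UMIs per VSMC. Without it the genotype difference in the share of interferon-responding fibroblasts at 18 weeks was 0.962 points (exact permutation p = 0.773).

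Against endothelial cells and leukocytes the direction varied between libraries. The median share was 8.81% in fibroblasts, 8.33% in endothelial cells and 4.93% in leukocytes. Median depths per library were 3150.5 to 14331 UMIs in endothelial cells and 2980 to 10037 in leukocytes. Fibroblasts had the higher share in 8 of 15 libraries with at least 20 endothelial cells and in 11 of 15 with at least 20 leukocytes, and in 6 and 9 of 15 after thinning. The other interferon-stimulated genes stood at a median of 3290 CPM over all fibroblasts, 6130 CPM in endothelial cells, 5864 CPM in leukocytes and 524 CPM in VSMCs. VSMCs had median depths of 5812 to 21902 UMIs per library and fibroblasts of 4319 to 26326, and fibroblasts had the higher share in 15 of 16 libraries with all UMIs and in 15 of 16 after thinning.

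**Figure D3:**
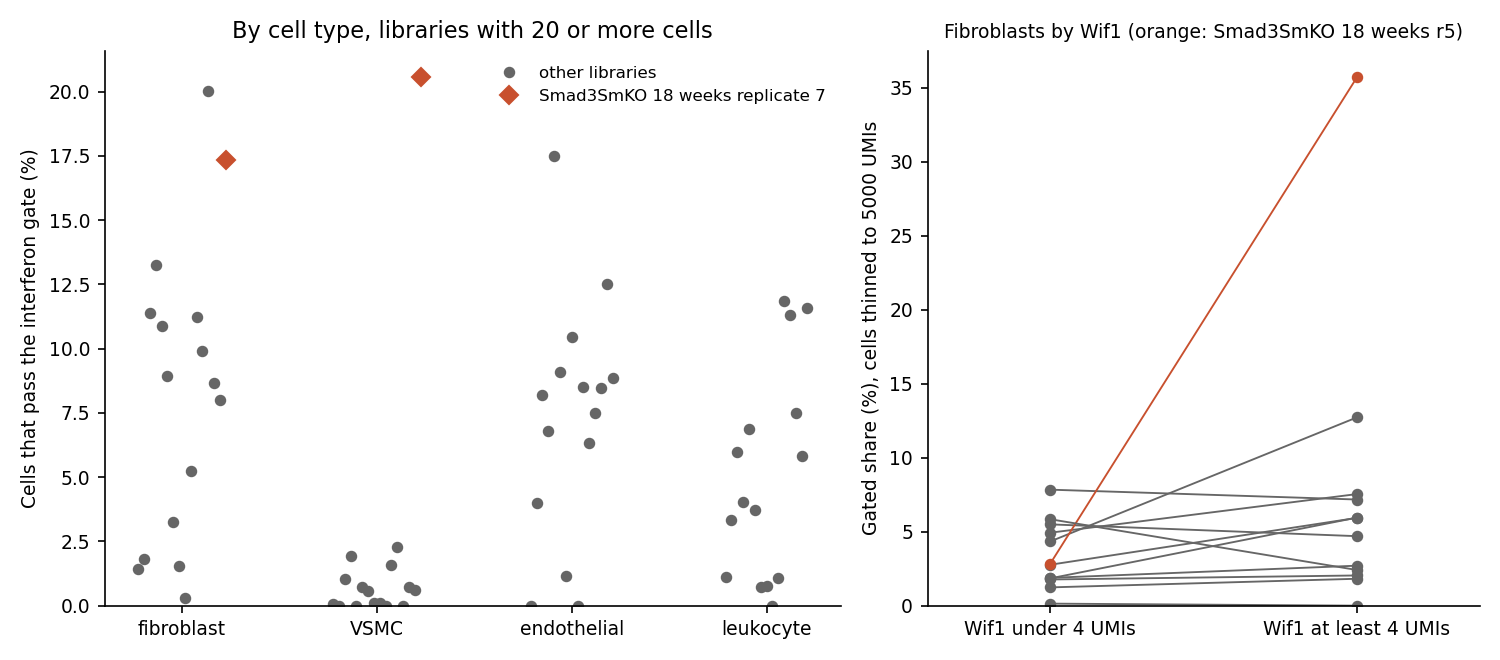
Left, share of fibroblasts, VSMCs, endothelial cells and leukocytes that pass the interferon gate (percent) in each library with at least 20 cells of the type, with Smad3SmKO replicate 7 of 18 weeks as diamonds; VSMCs are at 2.30% or lower except in that library. Right, share of fibroblasts that pass after thinning to 5000 UMIs (percent), by whether the thinned cell holds at least 4 UMIs of Wif1, in the 12 libraries with at least 20 such cells; Smad3SmKO replicate 5 of 18 weeks (orange) rises from 2.84% to 35.7%.

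Wif1, which encodes a secreted Wnt inhibitor, marked fibroblasts that passed the gate at different rates between mice. The threshold of 4 Wif1 UMIs was chosen after values were seen, so no test is given. Of fibroblasts thinned to 5000 UMIs, 159 of 2031 with at least 4 Wif1 UMIs (7.83%) and 1017 of 24440 others (4.16%) were interferon-responding. The share was higher in the Wif1-rich cells in 8 of 12 libraries. In Smad3SmKO replicate 5 of 18 weeks it was 35.7%, or 45 of 126 cells, against 2.84%, whereas in Smad3SmKO replicate 6 it was 2.41% against 5.84%.

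The interferon-responding fibroblasts were next compared with the other fibroblasts of the same mouse over all genes except the 5 of the interferon gate. Dcn and Myh11, which the fibroblast gate read in both states, stayed among the tested genes. UMI counts were summed per library and state, and Smad3SmKO replicate 2 of 10 weeks was left out because it held only 6 interferon-responding cells. Of 11390 genes tested in 15 libraries, 444 passed an adjusted p of 0.05 (3.9%), 269 of them higher (2.36%) and 175 lower (1.54%) in the interferon-responding cells (edgeR's quasi-likelihood test, Benjamini-Hochberg adjustment). The median log2 fold change over all tested genes was -0.01. Levels in this and the genotype comparison are CPM scaled by TMM, edgeR's library scaling, within each comparison, unlike the unscaled CPM of the defining genes above. The higher genes included antiviral genes, interferon-induced GTPases and class I presentation genes, and the lower ones included contractile and collagen genes. Genes that interferon induces together with the 5 had to differ in part because of how the cells were chosen, so their direction is not independent of the gate.

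Antiviral and other genes of the type I interferon response were the largest group of higher genes. Of 60 listed, 44 were tested, 41 rose, none fell, and the median log2 fold change was 1.30. The 3 that did not pass were Isg20 at 0.38, Daxx at 0.25 and Ifi211 at 0.23 on the log2 scale. Their summed level was 3927 to 9036 CPM in the interferon-responding cells and 1471 to 4843 CPM in the others.

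Rtp4, which encodes an interferon-induced receptor transporter protein, was the most certain of them. It stood at 62.3 CPM in the lowest library, 98.2 in the median and 160 in the highest, against 9.01, 16.1 and 20.8 CPM in the other fibroblasts. The 2 states did not overlap in any pair of libraries, and the log2 fold change was 2.64 ± 0.08 (SE; adjusted p = 1.76e-15). Gm4951 had the largest log2 fold change, 3.02 ± 0.18 (SE; adjusted p = 1.06e-10), at a median of 12.4 CPM against 1.74. Oasl2, of the oligoadenylate synthetase-like family, was at 74.4 CPM against 14.1 in the median library, and Cmpk2, a nucleotide kinase next to the antiviral gene Rsad2, at 17.7 against 3.18. Both were higher in 15 of 15 libraries, with log2 fold changes of 2.45 and 2.43.

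The guanylate-binding proteins and immunity-related GTPases, which attack the membranes around intracellular microbes and answer type II interferon strongly, rose wherever they could be tested. Of 18 listed, 11 were tested and 11 rose, and the median log2 fold change was 2.10, with Gbp2 the smallest at 1.08. Their summed level was 319 to 789 CPM in the interferon-responding cells and 91.2 to 157 CPM in the others, so the ranges did not overlap. Iigp1 was at 63.2 CPM in the lowest library, 102 in the median and 203 in the highest, against 11.2, 19.5 and 26.5 CPM. Again no library of one state reached the range of the other (log2 fold change 2.51 ± 0.12 SE, adjusted p = 7.20e-12). Igtp, Ifi47 and Irgm2 had log2 fold changes of 2.42, 2.35 and 2.26.

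Genes of class I peptide presentation rose by less. Of 19 listed, 18 were tested, 17 rose and none fell. The median log2 fold change was 0.58, and Erap1, the peptidase that trims peptides, did not pass at 0.17. The largest differences were in the class I-like gene H2-T24 (1.89), the peptide transporter gene Tap1 (1.22) and the immunoproteasome genes Psmb9 and Psmb8 (1.06 each). Psmb8 was at 109 CPM in the lowest library, 146 in the median and 288 in the highest, against 46.9, 72.1 and 114 CPM in the other fibroblasts. Its ranges overlapped between libraries, but it was higher in 15 of 15 within a library (adjusted p = 8.96e-08). Tap1 and Psmb9 are transcribed away from each other from starts 226 bases apart, and neither window held the ISRE letters. The classical class I genes, named here after their values were seen, had smaller log2 fold changes, 0.43 for H2-K1, 0.35 for H2-D1 and 0.40 for B2m, the class I light chain.

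The signalling genes split by role. Of 16 listed receptor, kinase and transcription factor genes, 16 were tested, 4 rose and none fell, with a median log2 fold change of 0.09. Among the 4 were Irf7, Stat2 and Irf9, which are themselves interferon-induced. Irf7, a master factor of interferon production, was at 35.3 CPM in the lowest library, 66.4 in the median and 328 in the highest, against 9.80, 15.3 and 42.6 CPM. The states overlapped slightly, Irf7 was higher in 15 of 15 libraries within a mouse, and its log2 fold change was 2.56 ± 0.22 (SE; adjusted p = 3.68e-08). Stat2 was at 24.2, 41.3 and 53.7 CPM against 11.6, 15.2 and 20.9, with no overlap of the states (log2 fold change 1.42 ± 0.07 SE, adjusted p = 1.15e-11). Irf9 had a log2 fold change of 1.33, with no overlap either. The receptor subunits did not pass, at -0.07 for Ifnar1, 0.01 for Ifnar2, 0.01 for Ifngr1 and -0.04 for Ifngr2 on the log2 scale, nor did the kinase genes Jak1 (0.12), Jak2 (-0.17) and Tyk2 (-0.11).

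**Figure D4:**
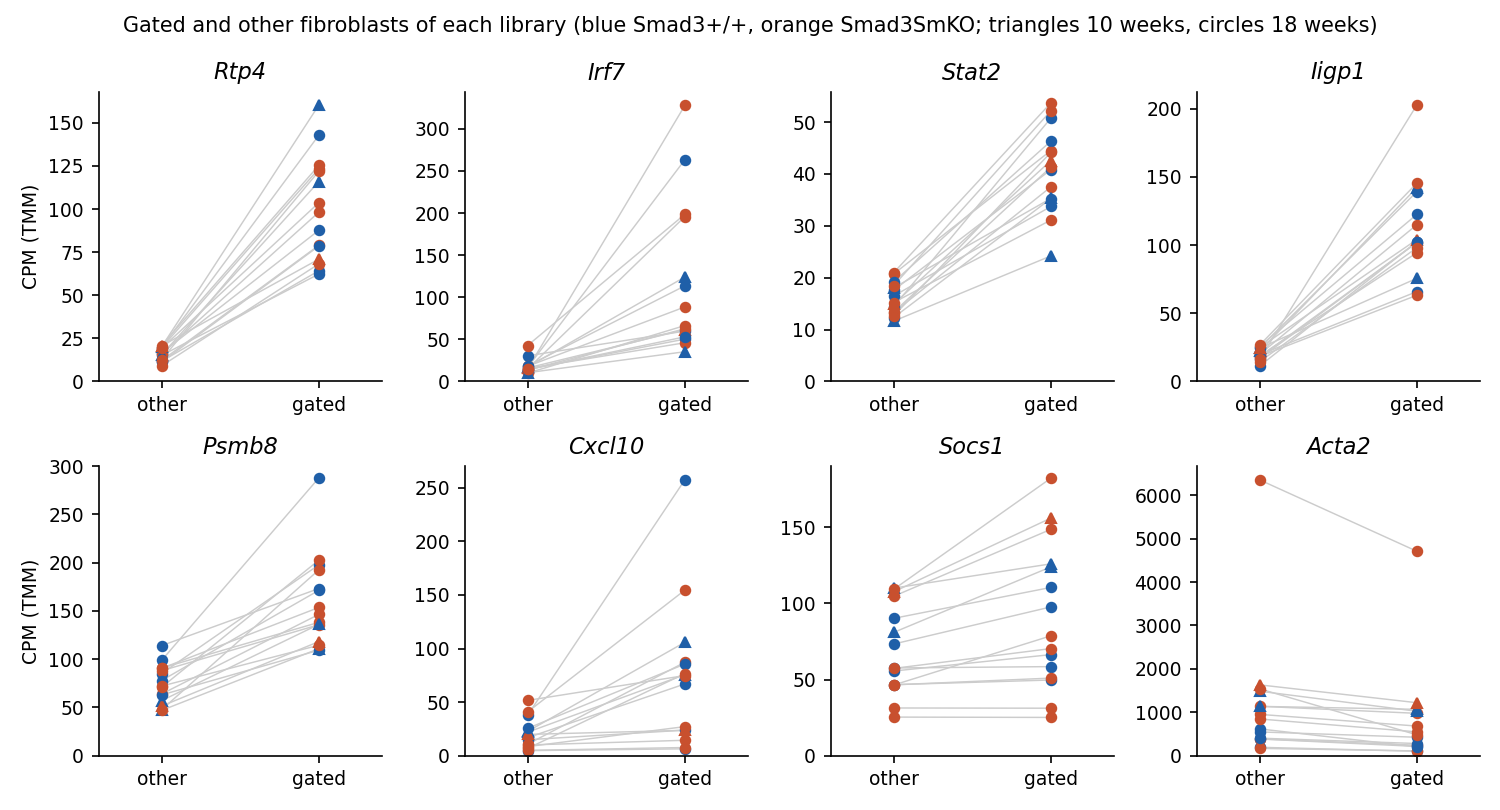
Level (CPM, scaled by edgeR's TMM) of 8 genes in the other and the interferon-responding fibroblasts of each of 15 libraries, joined by lines (blue Smad3+/+, orange Smad3SmKO, triangles 10 weeks, circles 18 weeks). Rtp4, Irf7, Stat2, Iigp1, Psmb8 and Cxcl10 are higher and Acta2 lower in the interferon-responding cells of 15 of 15 libraries, and Socs1 is higher in 13.

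Of 19 listed genes of sensors of foreign nucleic acid and their adaptors, 13 were tested and 7 rose, with a median log2 fold change of 0.71. Zbp1, a sensor of Z-form nucleic acid, had a log2 fold change of 2.12, and Dhx58, Ifih1 and Ddx58, which encode the RIG-I-like receptors, 1.73, 1.53 and 1.25. The adaptor genes Mavs (-0.05) and Tmem173, which encodes STING (0.11), did not pass, nor did the DNA sensor gene Aim2 (-0.48, adjusted p = 0.0722). For the conjugation of Isg15 to proteins, the ligase genes Herc6 and Trim25 rose by 1.27 each on the log2 scale and the conjugating enzyme gene Ube2l6 by 0.97, while the activating enzyme gene Uba7, at 0.53, did not pass (adjusted p = 0.0576).

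Among negative regulators, Socs1, whose product blocks JAK kinases, rose slightly. It was at 25.1 CPM in the lowest library, 78.7 in the median and 182 in the highest, against 25.3, 57.6 and 110 CPM. The states overlapped widely, and Socs1 was higher in 13 of 15 libraries within a mouse (log2 fold change 0.34 ± 0.06 SE, adjusted p = 0.00207). Among the libraries digested for 30 min it did not pass (0.21, adjusted p = 0.325). Socs3, Pias1, Ptpn2 and Ptpn11 had log2 fold changes between -0.12 and 0.07 and did not pass.

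Of 14 chemokine and cytokine genes tested, 2 rose and none fell, and the median log2 fold change was -0.00. Cxcl10, which attracts T cells through CXCR3, varied widely between mice. It was at 6.39 CPM in the lowest library, 74.8 in the median and 257 in the highest, against 4.70, 16.8 and 51.6 CPM. The ranges overlapped, but Cxcl10 was higher in the interferon-responding cells in 15 of 15 libraries (log2 fold change 1.69 ± 0.21 SE, adjusted p = 1.04e-05). Cx3cl1 rose by 0.25 on the log2 scale, a call that ended when any 1 of 9 libraries was left out. Ccl12 was at 0.71 (adjusted p = 0.665), Ccl2, Ccl7, Il6 and Il33 were between -0.12 and 0.06, and none of these passed.

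**Figure D5:**
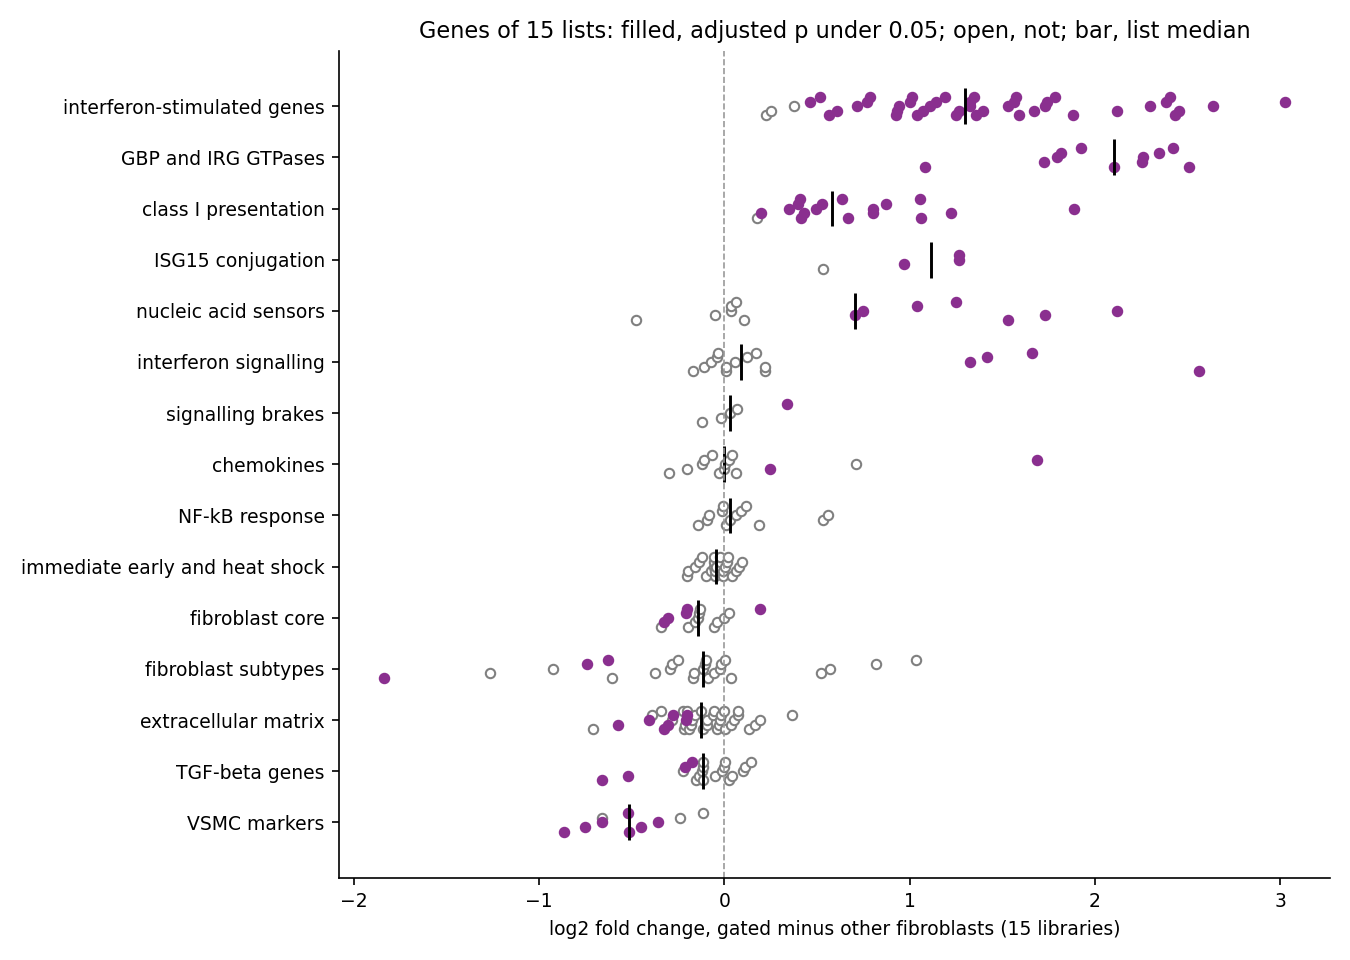
Log2 fold change (interferon-responding minus other fibroblasts, 15 libraries) of each tested gene of 15 gene lists, filled where the adjusted p is under 0.05 and open where it is not, with a bar at each list's median. The GTPase list has the highest median, 2.10, and the VSMC marker list the lowest, -0.52.

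Genes of stress, inflammation and other cell types mostly did not pass. Over all tested genes 3.9% passed, so 0 calls in lists as short as these is near that share. Of 24 immediate early and heat shock genes, which tissue digestion induces, 0 passed edgeR's test, and their summed level was 8578 to 29665 CPM in the interferon-responding cells and 9351 to 25472 CPM in the others. Of 13 tested genes of the NF-κB response and 7 of the cell cycle, 0 passed edgeR's test. Of 11 tested apoptosis and p53 genes only Mlkl, the effector of necroptosis, passed (0.59). No tested marker of macrophages (11), neutrophils (3), endothelial cells (7), pericytes (4), Schwann cells (1) or plasma cells (1) passed, and none of the lymphocyte or erythroid markers was abundant enough to test. Tnnt2, the 1 tested cardiomyocyte marker, fell by 1.04 on the log2 scale, and did not pass without mixed cells (-0.29, adjusted p = 0.655).

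Contractile genes were lower in the interferon-responding fibroblasts. Of 10 VSMC markers, 7 fell and none rose, with a median log2 fold change of -0.52. Acta2, smooth muscle actin, was at 102 CPM in the lowest library, 481 in the median and 4710 in the highest, against 168, 846 and 6356 CPM. The spread between mice was far larger than the difference between states, but Acta2 was lower in 15 of 15 libraries within a mouse (log2 fold change -0.66 ± 0.10 SE, adjusted p = 0.000160). Tagln, Cnn1 and Myh11 fell by 0.52, 0.76 and 0.87 on the log2 scale, and the gate on fibroblasts itself set a ceiling on Myh11 in both states. Without mixed cells 1 of 8 tested VSMC markers passed, with a median of -0.20, and Tagln (-0.38, adjusted p = 0.0814) and Cnn1 (-0.27, adjusted p = 0.699) did not. Mixed cells were set partly by Myh11, so the values without them draw on a gene of this list. Among libraries digested for 60 min 1 of 10 passed.

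Collagen and TGF-β genes were lower by small amounts. Of 39 tested matrix genes, 7 fell and none rose, with a median log2 fold change of -0.13. Col3a1 and Col1a2 fell by 0.33 and 0.30 on the log2 scale, Col8a1 by 0.41, and Thbs1, which encodes an activator of latent TGF-β, by 0.57. Col1a2 was at 1445 to 5036 CPM in the interferon-responding cells and 1773 to 4452 CPM in the others, and lower in 13 of 15 libraries. Of 20 tested TGF-β-responsive genes, 4 fell and none rose, with a median of -0.12. They were Acta2 and Tagln and the feedback inhibitors Smad7 (-0.21, lower in 15 of 15 libraries) and Skil (-0.17, lower in 13 of 15). The call of Skil ended when any 1 of 9 libraries was left out, and that of Thbs1 when either of 2 was. Smad3 itself did not pass, at -0.05 ± 0.09 (SE; adjusted p = 0.945). In the libraries digested for 60 min, 0 of the 39 matrix genes passed edgeR's test, at a median of -0.18.

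Some genes of fibroblast identity were lower in the interferon-responding cells. Of 15 core fibroblast genes, 5 passed, against 3.9% of all tested genes. Among these, the collagen genes Col1a2, Col3a1, Col6a1 and Col6a2 fell, and all 4 are also among the 7 lower matrix genes above. Dpt, dermatopontin, rose by 0.19 on the log2 scale, and the list median was -0.14. Of 25 genes that mark fibroblast subtypes, 3 fell and none rose. They were Cilp2 (-1.84), the transcription factor gene Foxd1 (-0.74) and the secreted matrix protein gene Spon2 (-0.63). Cilp2 was low, at a median of 0.617 CPM in the interferon-responding cells, and its call ended when any 1 of 5 libraries was left out.

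Outside the lists, 342 genes passed, 155 of them lower. The largest increases were in Apol9a and Apol9b, of the apolipoprotein L family (2.98 and 2.77 on the log2 scale), and Gm4841 (2.69). They were followed by Rnf213, a large ubiquitin ligase (1.69), Plac8 (1.50), the guanylate-binding gene Gbp2b (1.29), Sp110 (1.26), AW011738 (1.26) and the ADP-ribosyltransferase genes Parp10 (0.97) and Parp12 (0.95). Apol9a was at 5.04 CPM in the lowest library, 17.8 in the median and 32.1 in the highest, against 1.20, 2.25 and 6.20 CPM. It was higher in 15 of 15 libraries, and Apol9b in 14. Apol9a and Apol9b are near copies, so their reads could be split between them.

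The largest decreases outside the lists were in the muscle intermediate filament gene Des (-1.16) and the cartilage intermediate layer protein gene Cilp (-0.89). Gpld1 (-0.86), a phospholipase that releases anchored proteins, Ramp1 (-0.76), a subunit of the CGRP receptor, and Sh3bgr (-0.65) came next. The others were 1810041L15Rik (-0.62), Adcyap1r1 (-0.59), the natriuretic peptide clearance receptor gene Npr3 (-0.56), Adamtsl2 (-0.56) and Fgl2 (-0.49). Des, Ramp1 and 1810041L15Rik were lower in 15 of 15 libraries, and the other 7 in 14. Without mixed cells Des was at -0.45 (adjusted p = 0.303), Ramp1 at -0.37 (0.515) and Sh3bgr at -0.15 (0.799) on the log2 scale, and none of these 3 passed.

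The interferons themselves were almost undetected. Of 20 listed interferon genes, 5 had any UMI, 193 in all 50858 kept cells, of which 3 were in interferon-responding fibroblasts and 21 in the other fibroblasts, and none was abundant enough to test. Ifnb1, interferon beta, had 147 UMIs in 29 cells of 7 libraries, and 25 of those cells, with 142 of the UMIs, also held Tyrobp, a gene of myeloid and natural killer cells. A single cell of Smad3SmKO replicate 2 of 18 weeks held 65 of them, and Smad3SmKO replicate 6 held 58 in 15 cells. Of the 29 cells, 2 were interferon-responding fibroblasts, both in replicate 6. Ifng, interferon gamma, had 25 UMIs in 8 cells, of which 5, with 22 UMIs, also held Cd3e.

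The last comparison asked whether the interferon-responding fibroblasts differed between genotypes. At 18 weeks 0 of 12420 genes (0.0%) passed edgeR's test with batch as a term, with 191 at an unadjusted p under 0.05, and DESeq2 also called 0. At 10 weeks 0 (0.0%) passed, with 496 at an unadjusted p under 0.05 and 10 by DESeq2, but only 1 library labelled Smad3SmKO entered. That library was assumed to vary like the other groups, which supplied the spread, and the count of 0 says nothing on whether the genotypes differ at 10 weeks. The difference between genotypes at 18 weeks was compared between the interferon-responding and the other fibroblasts in the same fit, and 0 of 11390 genes (0.0%) passed, with 335 at an unadjusted p under 0.05 and 0 by DESeq2. Counts were simulated with 1 set spread and no gene differences between mice or batches. Changes were placed only in well-measured genes. Under these settings the 18-week genotype test recovered 35 of 200 changes of 1 on the log2 scale and 199 of 200 changes of 2. The comparison between states recovered 5 and 150 of 200. Counts of 0 at 18 weeks therefore do not show that changes of 1 or less are absent. Recovery among genes of lower count, or more variable between mice, was not tested. Smad3 had a log2 fold change of -0.04 ± 0.19 (SE; adjusted p = 1.00) in the interferon-responding cells at 18 weeks, at a mean of 19.8 CPM in Smad3+/+ and 17.3 in Smad3SmKO.

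The defining genes overlapped between genotypes at 18 weeks. On the TMM scale of this comparison, Isg15 in the interferon-responding cells was at 174 CPM in the lowest library, 492 in the median and 926 in the highest in Smad3+/+, and at 277, 514 and 1185 CPM in Smad3SmKO. Ifit1 was at 107, 149 and 284 CPM against 139, 239 and 441 CPM. The listed interferon-stimulated genes had a median log2 fold change of 0.09 (Smad3SmKO minus Smad3+/+), with 33 of 51 above 0, and the GTPases one of -0.27, with 4 of 14 above 0. Class I presentation genes had a median of -0.37 with 0 of 19 above 0 and 8 at an unadjusted p under 0.05, although none passed the adjusted test. In the other fibroblasts their median was -0.05, and 17 of 18 differences between the states lay below 0 (median -0.33), none of which passed. The median over all tested genes was -0.00.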

How the data were processed

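Single-cell libraries (10x 3′ chemistry) of 16 mouse aortas were deposited as UMI counts per gene and cell, made by the authors with Cell Ranger against mm10. The submitters' processing notes name Cell Ranger 6 and Seurat 4, and the headers of all 16 deposited matrices name Cell Ranger 4.0.0. No value column was left unused (0 columns).

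Following the study's methods, a kept cell had between 600 and 6000 genes and between 2000 and 50000 UMIs, limits excluded, and a mitochondrial share under 25%. No doublet caller was run, so the upper limits were the only guard against doublets. The fibroblast gate needed at least 5 Dcn UMIs and more Dcn than Myh11, and the interferon gate UMIs of at least 3 of 5 genes. The members and the 27 gene lists were chosen with earlier results of these data known, so no p-value adjusted over a list is given.

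Groups followed the genotype and weeks of the labels, and replicates were numbered in accession order. Library totals ranged from 12539539 to 52843031 UMIs. Shares were compared between mice by exact permutation tests, with exact Clopper-Pearson 95% intervals that cover counting error only. Cells are not replicates, so UMI counts were summed per library and state (at least 10 cells) and tested with edgeR 4.0.16 (quasi-likelihood, TMM, filterByExpr, Benjamini-Hochberg, adjusted p under 0.05) in R 4.3.3. Gated and other fibroblasts were compared with library as a block, genotypes with batch as a term, and the difference between them by an interaction. Scripts were tested on simulated data. Python 3.11.15 with numpy 2.4.6, scipy 1.17.1 and pandas 2.3.3 was used elsewhere, and DESeq2 1.42.0 as an alternative.

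Genes were named by rule: up to 4 of each list with the largest absolute change among those that passed, and outside the lists the 10 largest in each direction with at least 10 CPM in either state and the same direction in all libraries but at most 1. Some genes that met the rule are not reported here. Alternatives changed the number of gate genes, the Dcn limit, the depth of each cell, the mixed cells, the filter, the tool, the covariates, the digestion time and each library in turn. Promoter sequences came from RefSeq, GRCm38.p6.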

Additional observations from a re-analysis of the deposited data

Results flagged for a closer look

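In 26 groups of 4 to 10 libraries, 7 values stood far from the rest of their group. Chance would flag about 1 in 20 independent groups. These groups were not independent, since they held near-copy genes and the same shares before and after thinning, so the count cannot be set against that rate. Smad3+/+ replicate 1 of 18 weeks had 889 CPM of Ifit3 in its interferon-responding fibroblasts, against 108 to 224 CPM in the other 4 Smad3+/+ libraries, and 276 CPM of Ifit3b, against 44.0 to 86.7. Smad3SmKO replicate 5 of 18 weeks had 845 CPM of Ifit3, against 171 to 447 CPM in the other 6 libraries of its group, and 423 CPM of Ifit3b, against 68.0 to 161. In both mice the near copies Ifit3 and Ifit3b were thus far above the rest, while Ifit1, Isg15 and Usp18 were not flagged. These were high as well. Smad3+/+ replicate 1 was the highest of its group for Ifit1 (291 CPM), Isg15 (950) and Usp18 (78.6). Smad3SmKO replicate 5 was the highest of its group for Isg15 (1178 CPM) and next to highest for Ifit1 (438) and Usp18 (106). Both genes chose the cells, so these are levels and not tested differences.

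The share of VSMCs that passed the interferon gate in Smad3SmKO replicate 7 of 18 weeks was 20.6%, against 0 to 2.30% in the rest of its group, and 3.55% after thinning, against 0 to 0.524%. In Smad3+/+ replicate 1 of 18 weeks the thinned share was 1.03%, against 0 to 0.188%, and it rested on 1 of 97 VSMCs.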

How the results depend on the processing

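The genotype difference in share at 18 weeks reversed to -0.242 points among the libraries digested for 30 min and was 5.23 among those digested for 60 min. Leaving out each library in turn gave 0.368 to 2.98 points at 18 weeks, -1.31 to -0.0673 at 10 weeks and -4.49 to -0.968 for 60 against 30 min. Against 444 genes that differed between interferon-responding and other fibroblasts, 203 were called among libraries digested for 30 min (178 of them among the 444) and 141 among those digested for 60 min (129 of them). There were 186 with at least 4 gate genes, 182 with the gate read on 1 of 2 random parts of the UMIs and the test on the other, 206 at matched depth and 116 after thinning to 2000 UMIs. Each of these used fewer cells or UMIs, and some used fewer libraries than the 15 of the main comparison. With at least 4 gate genes 13 libraries entered, with the split UMIs 14, at matched depth 15 and after thinning 10. Leaving out 1 library gave 314 (without Smad3+/+ replicate 3 of 18 weeks) to 442, and the 18-week libraries alone, chosen after seeing the data, gave 358. Of the main calls tested again, 19 of 337 had the opposite sign after thinning and 1 of 429 with at least 4 gate genes, and none under the other settings. None of the named genes reversed across the settings run, and the call was lost in 134 refits of single genes and held in 1408, with 16 of the losses among the 30 min libraries and 23 among the 60 min ones. Leaving out 1 library ended the call of Cx3cl1, Skil, Cilp2, Thbs1, Col6a1, Col6a2 or Tnnt2. Genotype calls in the interferon-responding cells rose from 0 to 101 at 18 weeks and 19 at 10 weeks with no filter on low counts, to 10 at 10 weeks with DESeq2, and the calls of the difference between states to 82 with no filter. The cause was not tested. Leaving out 1 library gave 0 to 1 call of that difference, the 1 being Cst6 (log2 2.12, adjusted p = 0.0174) without Smad3SmKO replicate 6 of 18 weeks, against 1.36 with all libraries. The labels carry no replicate numbers to pair mice of different genotype, so genotypes were compared with batch as a term or within batches, and library was a block between cells of one mouse. The 10-week libraries held 6 to 62 interferon-responding cells, which limits what could be detected there.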

Other observations

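Rspo3, Gata3, Wif1 and Coch were named after their values were seen, and of them Rspo3 and Gata3 passed as higher in the interferon-responding cells. Whether Rspo3 and Gata3 differ between Wif1-rich and other fibroblasts was not tested. Rspo3, which encodes a secreted amplifier of Wnt signals, had a log2 fold change of 0.81 (edgeR, adjusted p = 0.00134) and was higher in 15 of 15 libraries. It was 0.66 without Smad3SmKO replicate 5 of 18 weeks, the library with the largest Wif1 difference. Gata3, a transcription factor gene, had 0.79 (adjusted p = 0.0366) and was higher in 8 of 15, and without that library 0.55 (adjusted p = 0.0618). Wif1 itself had 0.57 (adjusted p = 0.163) and Coch 1.03 (adjusted p = 0.0825), neither of which passed.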
